A study of Mus musculus with 18 samples.

Results

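The lineage transcription factors of microglia described here are 9 genes, Spi1, Irf8, Irf5, Runx1, Sall1, Mef2c, Maf, Cebpa and Cebpb, and they were measured by 27 of the 45101 probe sets of an Affymetrix mouse array. Every probe set annotated to exactly 1 of these genes was taken, and none of them was annotated to several genes. Runx1 and Maf had 6 probe sets each, Mef2c had 5, Irf8, Sall1, Cebpb and Irf5 had 2 each, and Spi1 and Cebpa had 1 each. A total of 26 were bright enough to be tested, with a mean log2 value over all arrays above 2.49. The exception was the Cebpb probe set 1427844_a_at, which lay between 2.19 and 2.20 on 17 arrays, at the lower limit of the scale, and at 3.54 on 1 DAP12KO array. For each gene the probe set with the highest mean is called its lead probe set. Values are the authors' log2 expression values throughout, so that a difference of 1 is a doubling, and levels of different probe sets are not compared.

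Microglia are the resident macrophages of the brain, and they descend from yolk sac progenitors. Spi1 encodes PU.1, the ETS-domain factor that macrophages require, and Irf8 is an interferon regulatory factor that binds DNA together with PU.1. Runx1 acts in the formation of blood progenitors. The zinc finger factor Sall1 and the MADS-box factor Mef2c help to set the microglial state within the brain. Maf, Cebpa and Cebpb are leucine zipper factors of macrophages, with Cebpb acting in inflammatory gene expression, and Irf5 carries signals from Toll-like receptors to cytokine genes.

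RNA came from microglia of C57BL/6 mouse embryos at E17.5, sorted by FACS as CX3CR1-GFP+ cells from pooled hippocampi, and pooled per pregnant dam. The 18 arrays comprised 4 from wild-type embryos of LPS-treated dams, 4 from wild-type embryos of PBS-treated dams, 4 from untreated DAP12-/- embryos (the DAP12KO group), and 6 from wild-type embryos left untreated (UT). LPS, bacterial lipopolysaccharide, was given to inflame the mother, and DAP12, encoded by Tyrobp, is an adaptor that transmits the signals of receptors such as TREM2. All groups shared the GFP reporter used in the sort, and embryo sex was recorded as unknown. The dose, route and time of LPS are unstated in the labels. Each label ends in a year whose meaning is not stated, and these label years are numbered 1 to 4 in order of time. Arrays with _2008 (year 1) were 1 LPS and 1 PBS, those with _2010 (year 2) were 2 LPS and 2 PBS, those with _2012 (year 3) were 2 UT, and those with _2013 (year 4) were the remaining LPS and PBS arrays, 4 UT and all 4 DAP12KO arrays.

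The 2 PBS arrays of year 2 stood apart from the other 16. The mean of 13 microglia markers, of 14 written, was 11.86 and 12.08 in them, against 12.90 to 13.96 elsewhere. Their 15 neuron markers, of 16 written, averaged 10.87 and 11.00, against 6.30 to 9.33, and all 11 markers of neural progenitors and radial glia 10.91 and 10.95, against 6.08 to 8.83. The 2 LPS arrays of year 2 lay between them and the other 14, with neuron markers at 9.16 and 9.33, against 6.30 to 8.21 in those 14, and microglia markers at 13.08 and 12.90, against 13.15 to 13.96. The 3 tested markers of choroid plexus and stroma, of 8 written, averaged 7.65 and 6.91 in these LPS arrays and 9.56 and 8.53 in the PBS arrays of year 2, against 2.29 to 5.57 in the 14. None of the microglia, neuron or progenitor markers was near the lower limit in both PBS arrays of year 2, whereas Nefm and Nefl were on all UT arrays. Xist, the RNA of the inactive X chromosome, was at 2.21 in both of these PBS arrays and in 1 UT array, against 10.72 to 13.99 in the remaining 15. Gapdh 3′ minus 5′ signal, a measure of RNA integrity, was 2.01 to 3.33 over all arrays of years 1 and 2. It was 2.77 in UT replicate 4 of year 3, 2.23 in UT replicate 2 of year 4, and 0.89 to 1.31 in the remaining arrays. In bulk samples fewer cells of a type and less RNA per cell cannot be told apart, and the part of these values in the results below was not tested. The targeted gene Tyrobp (1450792_at) was at 13.75 to 14.23 in DAP12KO arrays and at 14.29 to 14.55 in UT arrays, with no overlap and a difference of −0.60 ± 0.13 (SE, limma, adjusted p = 0.480). The labels do not place this probe set relative to the deleted part of the gene, so its level is no check of the genotype.

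Sequence directly before the gene start is shown for 4 of the factors that had 1 or more probe sets lower in both PBS arrays of year 2 than in all other arrays. RefSeq windows of GRCm38.p6 were matched for 7 of the 9 genes, with 13 windows in all, and the 250 bases before each start were searched on both strands. Capitals mark the CCAAT box (CCAAT, or ATTGG on the other strand) and the TATA box (TATAAA, or TTTATA on the other strand). Every window shown holds 1 or more of these boxes. Cebpb and Irf5 met the same rule, but their windows hold neither box and are not shown. Nor is a further window each of Irf8 and Mef2c that holds neither.

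Irf8, chr8:120736108-120736357, plus strand: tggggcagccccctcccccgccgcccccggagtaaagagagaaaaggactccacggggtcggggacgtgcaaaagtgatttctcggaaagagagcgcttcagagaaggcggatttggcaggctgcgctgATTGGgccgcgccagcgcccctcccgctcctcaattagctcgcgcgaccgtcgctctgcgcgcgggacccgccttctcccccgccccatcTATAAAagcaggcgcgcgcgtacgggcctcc

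Runx1, chr16:92826075-92826324, minus strand: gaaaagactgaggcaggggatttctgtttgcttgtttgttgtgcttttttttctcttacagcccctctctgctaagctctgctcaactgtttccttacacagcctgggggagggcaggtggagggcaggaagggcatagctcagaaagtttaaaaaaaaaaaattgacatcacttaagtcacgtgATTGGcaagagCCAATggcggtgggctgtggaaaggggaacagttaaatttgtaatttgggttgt

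Runx1, chr16:92697330-92697579, minus strand: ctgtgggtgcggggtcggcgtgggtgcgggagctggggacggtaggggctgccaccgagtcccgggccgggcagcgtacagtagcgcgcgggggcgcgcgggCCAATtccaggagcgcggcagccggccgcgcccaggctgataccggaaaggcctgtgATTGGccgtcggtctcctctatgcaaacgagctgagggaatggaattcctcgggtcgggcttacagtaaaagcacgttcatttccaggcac

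Cebpa, chr7:35119043-35119292, plus strand: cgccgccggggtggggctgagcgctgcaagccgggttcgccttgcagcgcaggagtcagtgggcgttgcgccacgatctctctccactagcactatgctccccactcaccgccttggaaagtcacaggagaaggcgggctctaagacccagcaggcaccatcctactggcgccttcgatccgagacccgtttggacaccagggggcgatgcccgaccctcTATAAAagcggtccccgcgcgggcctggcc

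Mef2c, chr13:83503784-83504033, plus strand: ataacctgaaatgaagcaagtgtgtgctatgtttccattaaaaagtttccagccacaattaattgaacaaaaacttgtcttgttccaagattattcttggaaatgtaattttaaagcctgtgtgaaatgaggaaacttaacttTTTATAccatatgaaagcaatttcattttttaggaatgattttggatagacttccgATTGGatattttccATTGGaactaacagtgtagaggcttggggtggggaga

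The Irf8 window shown holds a CCAAT box whose first base lies 121 bases before the start and a TATA box at 31. Both Runx1 windows, which belong to its 2 alternative start sites, hold a pair of CCAAT boxes and no TATA box. CCAAT boxes occur in 6 of the 13 windows and in 33.8% of all, and TATA boxes in 4 of 13 and 12.4% of all, including those of Cebpa at 30 bases and Irf8. Those of Mef2c were matches on the other strand, at 107 and 22 bases before the start. Motifs of the factors themselves were searched first and had no match in the 13 windows: GAGGAAGT of PU.1 (2.44% of all windows), the composite motif of PU.1 with an IRF (2.3%), TGTGGT of RUNX (14.0%), TTGCNNAA of C/EBP (9.56%), TGCTGAC of MAF (3.81%) and the interferon-stimulated response element (2.98%). The last of these and the composite motif both end in GAAA, so that their matches can overlap, although no single stretch can match both. The CCAAT and TATA boxes were added after that result was seen, and a match is only a match of letters.

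Arrays from LPS-treated dams were set against those from PBS-treated dams to ask what maternal inflammation does to embryonic microglia, and no probe set of the 9 factors passed the test. In the fit across all 18 arrays with label year as a term, 0 of 26 had an adjusted p under 0.05 (limma, Benjamini-Hochberg adjustment over 22512 probe sets), against 6 of all probe sets, or 0.0267%. Before adjustment 4 of 26 had p under 0.05, with 2 of Runx1 and 1 each of Maf and Irf5, against 2774 of all. The difference was above 0 for 24 of 26, with a median of 0.43 against −0.10 over all probe sets. LPS and PBS arrays overlapped for every one of the 26, where 2.23% of all probe sets did not overlap.

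Most of these positive differences, but not all, came with the PBS arrays of year 2. Within that year the 2 LPS arrays were both above the 2 PBS arrays for 22 of 26 probe sets, against 23.1% of all, and the median difference was 1.17 against −0.06 over all. Within year 1 the difference was above 0 for 11 of 26 with a median of −0.25, against 43.8% of all, and within year 4 for 8 of 26 with a median of −0.27, against 39.9% of all. Both PBS arrays of year 2 lay below all 16 other arrays for 14 of 26 probe sets, against 4.92% of all. Their mean was below that of the other 2 PBS arrays for all 26, by a median of −1.57, whereas over all probe sets the median was 0.11. The LPS arrays of year 2 were above the other LPS arrays for 13 of 26, with a median of −0.01. Without the PBS arrays of year 2 the fitted LPS minus PBS difference was above 0 for 8 of 26, its median was −0.20, and 0 passed. With label year in the fit, the LPS arrays of year 2 then add nothing to this difference. It is the mean of the differences within years 1 and 4, each of 1 LPS and 1 PBS array, and so no separate check. Among the 8 still above 0 was Runx1 1452530_a_at, at 3.99, 1.84 and −0.61 within years 1, 2 and 4. Others were Runx1 1440878_at, at 1.76, 2.58 and −0.12, and Maf 1435828_at, at 0.33, 0.62 and 0.83.

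**Figure D1:**
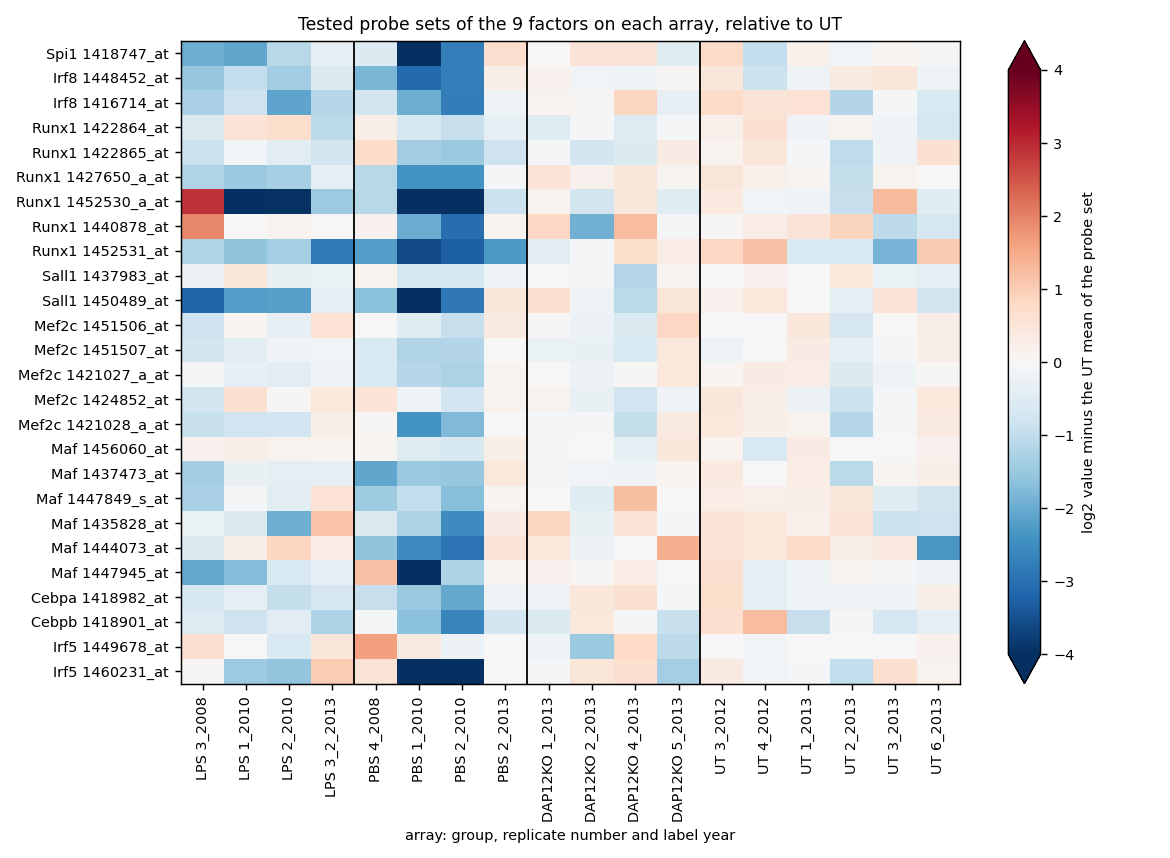
Each row is 1 of the 26 tested probe sets and each column 1 of the 18 arrays, ordered LPS, PBS, DAP12KO and UT, with colour giving the log2 value minus the UT mean of that probe set. The 2 PBS arrays of year 2 are blue in nearly every row, and their median difference from UT was −1.99, against −0.51 for the LPS arrays of year 2.

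Spi1 had among its arrays the widest spread of the 9 lead probe sets in the PBS group. It was at 9.20 in the LPS array of year 1, 9.07 and 10.03 in those of year 2 and 10.79 in that of year 4, against 10.61 in the PBS array of year 1, 6.81 and 8.40 in those of year 2 and 11.82 in that of year 4. LPS was thus above PBS in year 2 and below it in years 1 and 4, by 1.94, −1.41 and −1.03. The group means were 9.77 ± 0.80 for LPS and 9.41 ± 2.24 for PBS (SD, n = 4 each), and the fitted difference was 0.36 ± 0.58 (SE, limma adjusted p = 0.875). It turned to −0.15 without LPS replicate 2 of year 2, to −0.27 without PBS replicate 1 of year 2, and without both PBS arrays of year 2 to −1.22 (adjusted p = 0.371). Spi1 was at 11.15, 11.68, 11.66 and 10.68 in the DAP12KO arrays, against a lowest of 10.16, a median of 11.22 and a highest of 11.93 over the UT arrays. The DAP12KO values lay inside the range of all UT arrays, with a difference of 0.09 (95% interval −1.15 to 1.33). The UT arrays of year 4, which set this difference, ranged only from 11.03 to 11.36. The DAP12KO values of 11.68 and 11.66 lay above that range and 10.68 below it.

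Irf8, the partner of PU.1, had the highest LPS minus PBS difference of the 9 lead probe sets in the fit over all 18 arrays. Its lead probe set 1448452_at was at 9.93 in year 1, 10.45 and 10.07 in year 2 and 10.91 in year 4 in LPS arrays, against 9.62, 8.34 and 8.70, and 11.71 in the PBS arrays of the same years. The PBS arrays of year 2 were the lowest of all 18 arrays and that of year 4 was above all LPS arrays. Irf8 averaged 10.34 ± 0.44 in LPS and 9.59 ± 1.51 in PBS arrays (SD, n = 4 each), a difference of 0.75 ± 0.40 (SE, limma adjusted p = 0.465). It was −0.25 without the PBS arrays of year 2, and 1.35 (adjusted p = 0.0324) when limma weighted the arrays by their estimated precision. These weights gave 1.57 to 2.88 to the arrays of year 2 and 0.275 to those of year 1. With them 1968 of all probe sets passed for LPS minus PBS, against 6 with equal weights. The DAP12KO arrays were close together at 11.61, 11.34, 11.28 and 11.49, against a UT lowest of 10.58, median of 11.53 and highest of 11.93. The difference was −0.12 (95% interval −0.98 to 0.73). The second probe set, 1416714_at, gave 0.04 ± 0.45 for LPS minus PBS and 0.50 ± 0.45 for DAP12KO minus UT (SE). Its Pearson r with the lead probe set was 0.73 over all 18 arrays and 0.03 over the 10 arrays of year 4.

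Irf5 had probe sets that disagreed. The lead probe set 1449678_at was at 10.01 in year 1, 9.33 and 8.74 in year 2 and 9.82 in year 4 in LPS arrays, against 10.97, 9.72 and 9.12, and 9.34 in PBS arrays. Unlike the other 8 lead probe sets it had its highest group mean in PBS, and its fitted difference was −0.31 ± 0.45 (SE, limma adjusted p = 0.853). It was at 9.33 on 5 arrays, 1 LPS and 4 UT, and on 4 of these the value was equal to the last deposited digit, a repeat found on 4 or more arrays for 2929 of the 22512 tested probe sets. The second probe set, 1460231_at, was at 9.56 in year 1, 8.04 and 7.94 in year 2 and 10.53 in year 4 in LPS arrays, against 10.04, 5.17 and 5.51, and 9.53 in PBS arrays. The PBS arrays of year 2 were the lowest of all, and the difference of 1.46 ± 0.57 (SE) had an adjusted p of 0.318, or 0.00458 with array weights, where it was 2.26. In DAP12KO arrays the lead probe set ranged from 7.87 to 10.14, against 9.22 to 9.51 in UT arrays, so that the DAP12KO values spread on both sides of the UT values. Its difference was −0.51 (95% interval −1.46 to 0.45), and that of 1460231_at was −0.01 (−1.23 to 1.20).

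For Runx1, year 2 held the 2 highest LPS values as well as the 2 lowest PBS values. Its lead probe set 1422864_at was at 10.23 in year 1, 11.34 and 11.52 in year 2 and 9.73 in year 4 in LPS arrays, against 11.06, 10.15 and 9.87, and 10.43 in PBS arrays. LPS was above PBS in year 2 only, by 1.42, and below it in years 1 and 4 by −0.84 and −0.70. The group means of 10.70 ± 0.87 in LPS and 10.38 ± 0.51 in PBS arrays (SD, n = 4 each) overlapped, with a fitted difference of 0.32 ± 0.38 (SE, limma adjusted p = 0.798). Without the PBS arrays of year 2 it was −0.77 (adjusted p = 0.374), and with array weights 1.03 (adjusted p = 0.0472). In DAP12KO arrays the lead probe set was at 10.28, 10.73, 10.30 and 10.75, against a UT lowest of 10.14, median of 10.81 and highest of 11.40, and the difference was −0.10 (95% interval −0.90 to 0.71).

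The other 5 Runx1 probe sets followed the lead weakly, with Pearson r from 0.00 to 0.47 over 18 arrays. All 5 had positive LPS minus PBS differences, from 0.21 for 1422865_at to 1.76 for 1452530_a_at, and none passed. The last was at 11.93 in the LPS array of year 1 and 7.95 in the PBS array of that year, a difference of 3.99, and in year 2 it was at 4.73 and 5.10 in LPS arrays, against 2.34 and 3.81 in PBS arrays. The value of 2.34 was under the filter threshold of 2.49, near the lower limit of the scale. In year 4 the order turned, with 7.59 in the LPS array, against 8.20 in the PBS array. It was the member probe set with the lowest adjusted p for label year. The probe set 1440878_at was at 9.04 in year 1, 7.09 and 7.25 in year 2 and 7.13 in year 4 in LPS arrays, against 7.28, 5.12 and 4.07, and 7.25 in PBS arrays. Its difference of 1.70 ± 0.72 (SE) had an adjusted p of 0.347, or 0.0338 with array weights. The files do not pair these probe sets with transcripts of the gene.

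Sall1, whose product helps to keep microglia in their resident state, had group means of 12.32 in LPS, 12.04 in PBS, 12.14 in DAP12KO and 12.40 in UT arrays. The lead probe set 1437983_at was at 12.17 in year 1, 12.86 and 12.10 in year 2 and 12.15 in year 4 in LPS arrays, against 12.54, 11.70 and 11.72, and 12.20 in PBS arrays. The PBS arrays of year 2 were the lowest except for 1 DAP12KO array, and LPS minus PBS was 0.28 ± 0.30 (SE, limma adjusted p = 0.773). In DAP12KO arrays it was at 12.39, 12.37, 11.27 and 12.54, against a UT lowest of 12.05, median of 12.41 and highest of 12.83. The array at 11.27 was the lowest of all 18, the other 3 lay inside the UT range, and the difference was −0.22 (95% interval −0.86 to 0.42). The second probe set, 1450489_at, ranged more widely, from 7.46 to 10.32 in LPS arrays and from 6.27 to 11.12 in PBS arrays, with both groups highest in year 4. Its difference was 0.13 ± 0.55 (SE).

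Mef2c had 5 probe sets that ran together across the arrays. The lead probe set 1451506_at was at 11.63 in year 1, 12.53 and 12.15 in year 2 and 13.04 in year 4 in LPS arrays, against 12.47, 11.97 and 11.55, and 12.84 in PBS arrays. The means were 12.34 ± 0.60 in LPS and 12.21 ± 0.56 in PBS arrays (SD, n = 4 each), and the fitted difference was 0.13 ± 0.32 (SE, limma adjusted p = 0.936). It was −0.04 without LPS replicate 1 of year 2 or without PBS replicate 2 of year 2, 0.45 without either array of year 1, and −0.32 without both PBS arrays of year 2. The other 4 probe sets gave 0.16 to 0.48, and their Pearson r with the lead was 0.63 to 0.80 over 18 arrays. In DAP12KO arrays the lead probe set was at 12.52, 12.25, 11.88 and 13.28, against a UT lowest of 11.79, median of 12.46 and highest of 12.92. The difference was 0.01 (95% interval −0.68 to 0.69), and those of the other 4 were −0.24 to 0.18.

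Maf, which activates Il10 in macrophages, had the smallest SD over the LPS arrays of the 9 lead probe sets. Its lead probe set 1456060_at was at 14.07 in year 1, 14.15 and 14.03 in year 2 and 14.01 in year 4 in LPS arrays, against 13.99, 13.39 and 13.26, and 14.13 in PBS arrays. The SD was 0.06 over the 4 LPS arrays and 0.43 over the 4 PBS arrays, and the PBS arrays of year 2 were lower than all LPS arrays. The difference was 0.38 ± 0.20 (SE, limma adjusted p = 0.468), −0.02 without the PBS arrays of year 2, and 0.64 with array weights (adjusted p = 0.0455). Of the other 5 probe sets, 4 gave 0.56 to 1.85 and 1447945_at gave −0.04. The highest, 1444073_at, was at 8.54 in year 1, 9.36 and 9.97 in year 2 and 9.41 in year 4 in LPS arrays, against 7.49, 6.59 and 6.16, and 9.65 in PBS arrays. Its 1.85 ± 0.70 (SE) had an adjusted p of 0.299, or 0.0108 with array weights. In DAP12KO arrays the lead probe set was at 13.96, 13.89, 13.54 and 14.37, against a UT lowest of 13.29, median of 13.97 and highest of 14.24, with a difference of −0.08 (95% interval −0.51 to 0.35). The differences of the other 5 probe sets were 0.05 to 0.63. Pearson r of these 5 with the lead was 0.18 to 0.53 over 18 arrays and −0.52 to 0.39 over the 10 arrays of year 4.

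Cebpa, a factor of myeloid differentiation, was at 10.22 in year 1, 10.45 and 9.91 in year 2 and 10.19 in year 4 in LPS arrays, against 9.92, 9.38 and 8.82, and 10.64 in PBS arrays. The PBS arrays of year 2 were again the lowest of all 18. The difference was 0.50 ± 0.35 (SE, limma adjusted p = 0.589), and −0.07 without them. In DAP12KO arrays it was at 10.71, 11.32, 11.47 and 10.78, against a UT lowest of 10.45, median of 10.68 and highest of 11.56. All 4 DAP12KO values were above the UT median and inside the range of all UT arrays, and the difference was 0.29 (95% interval −0.45 to 1.02). The UT arrays of year 4, which set this difference, ranged from 10.66 to 11.10, and the DAP12KO values of 11.32 and 11.47 lay above them.

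Cebpb, which LPS is known to induce in macrophages directly exposed to it, was at 10.42 in year 1, 10.09 and 10.47 in year 2 and 9.69 in year 4 in LPS arrays, against 10.85, 9.29 and 8.28, and 10.19 in PBS arrays. LPS was above PBS in year 2 by 1.50 and below it in years 1 and 4 by −0.44 and −0.49. The difference was 0.52 ± 0.43 (SE, limma adjusted p = 0.675), and −0.47 without the PBS arrays of year 2. In DAP12KO arrays it was at 10.34, 11.35, 10.85 and 10.03, against a UT lowest of 10.02, median of 10.77 and highest of 12.17. The 2 highest values belonged to the UT arrays of year 3, and the difference, which the label year term sets against the UT arrays of year 4, was 0.19 (95% interval −0.72 to 1.10).

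**Figure D2:**
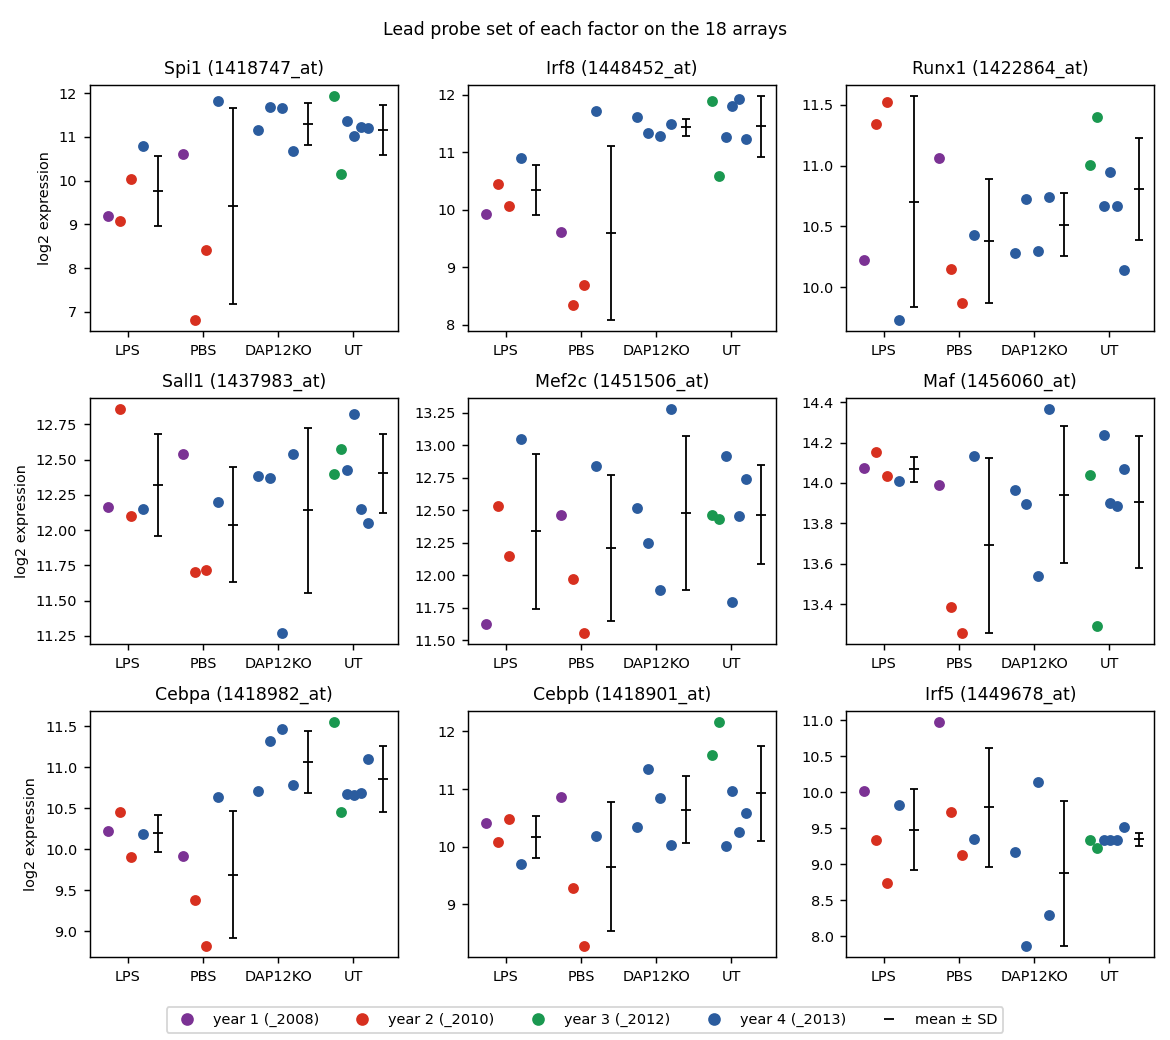
The log2 value of the lead probe set of each factor is plotted for every array by group, coloured by label year, with the group mean and SD beside the points. The red PBS points of year 2 are the lowest of their group in 8 of the 9 panels, the exception being Irf5, and the DAP12KO and UT points overlap in all 9.

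**Figure D3:**
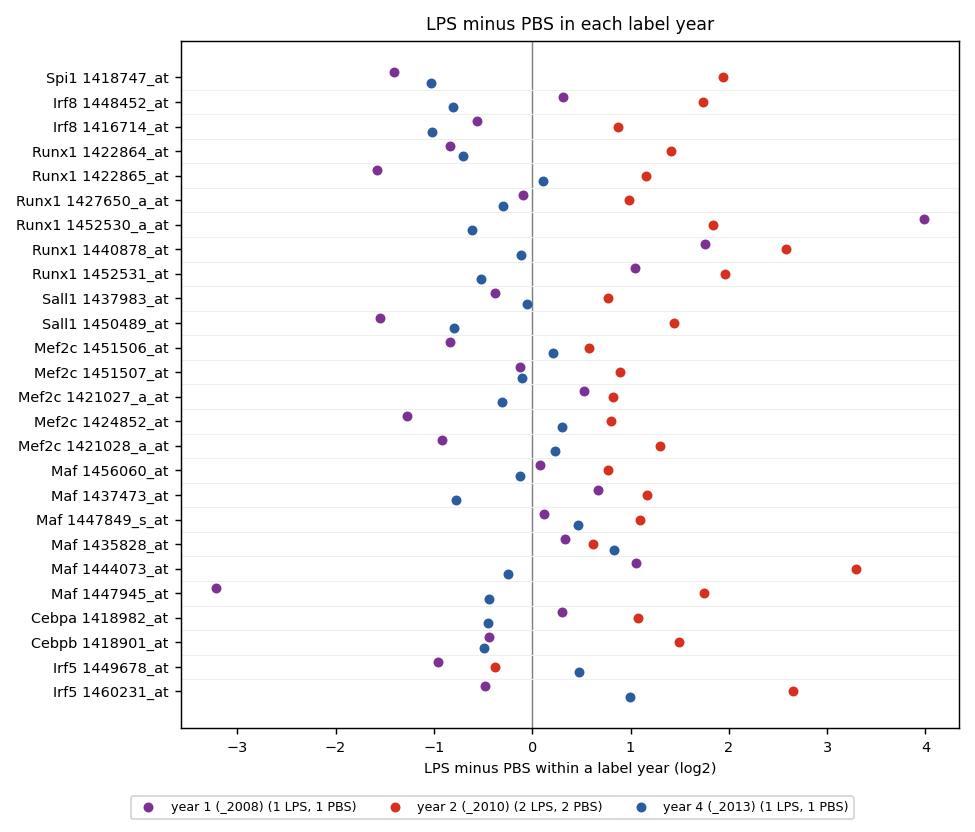
For each of the 26 tested probe sets, points give LPS minus PBS on the log2 scale within years 1, 2 and 4. In year 2 there are 25 of 26 points above 0, against 11 in year 1 and 8 in year 4.

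The comparison of DAP12KO with UT asks what loss of the adaptor does to the same cells, and the 9 factors showed no difference that passed. Of the 26 probe sets 0 had an adjusted p under 0.05 (limma), against 0 of all 22512 (0.0%), and before adjustment 0 of 26 had p under 0.05 against 1234 of all. The differences ran from −0.51 for the Irf5 lead probe set to 0.64 for Runx1 1452531_at, with 15 above 0 and a median of 0.07 against 0.02 over all. DAP12KO arrays overlapped the 4 UT arrays of year 4 for every one of the 26, where 2.31% of all probe sets did not overlap. The 95% intervals of the lead probe sets reached 0.35 to 1.33 on the upper side, so that a doubling lay outside the interval for Irf8, Irf5, Runx1, Sall1, Mef2c and Maf and inside it for Spi1, Cebpa and Cebpb. A halving lay inside the interval for Spi1 and Irf5. Of the other 17 probe sets, 11 had a doubling inside the interval, among them 1 or more of Irf8, Irf5, Runx1, Sall1 and Maf, and 6 had a halving inside it. Leaving out 1 array turned the sign for 7 of the 9 lead probe sets, to values between −0.26 and 0.07, the exceptions being Cebpa and Irf5. For Sall1, which had the largest of these values, it was 0.07 without DAP12KO replicate 4, and for Mef2c, which had the lowest, it was −0.26 without DAP12KO replicate 5. Neuron markers averaged 6.56 to 7.43 in DAP12KO arrays and 6.30 to 7.68 in UT arrays. All 7 markers of border-associated macrophages, such as Mrc1 and Lyve1, averaged 7.75 to 8.52 in DAP12KO arrays and 7.80 to 10.69 in UT arrays, and their part in these results was not tested.

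**Figure D4:**
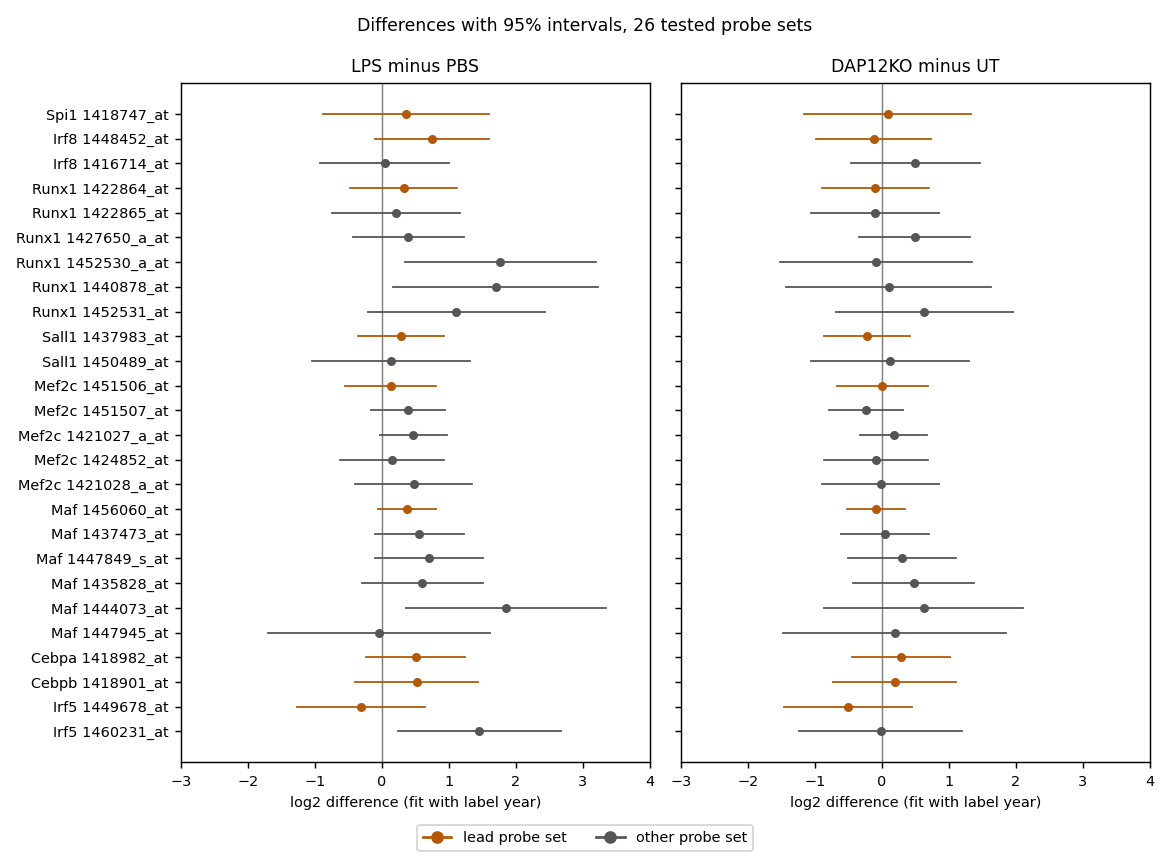
Points give the fitted log2 difference and bars its 95% interval for each of the 26 tested probe sets, LPS minus PBS on the left and DAP12KO minus UT on the right, with lead probe sets in orange. On the left 24 of 26 points lie above 0, and on the right 15 of 26. The bars of 4 probe sets on the left do not cross 0, and all bars on the right do.

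Whether LPS minus PBS differed from DAP12KO minus UT was tested as a contrast of its own. It had an adjusted p under 0.05 for 0 of 26 probe sets and for 1 of all, or 0.00444%, and an unadjusted p under 0.05 for 0 of 26 and 1844 of all. For the lead probe sets this difference ran from 0.12 ± 0.45 for Mef2c to 0.87 ± 0.57 for Irf8 (SE, limma adjusted p = 0.698).

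In the order of group means, PBS was lowest for 8 of the 9 lead probe sets and for 23 of the 26 tested. DAP12KO and UT were the 2 highest for 19 of 26. Neither count was set against a share over all probe sets. Against the UT mean, the PBS arrays of year 2 had a median difference of −1.99 over the 26 probe sets. For the other PBS arrays it was −0.19, with 9 of 26 above 0, against 42.7% of all. Among the 27 neighbouring pairs in these orders for the lead probe sets, the gap between the means exceeded the larger SD for 3, UT above LPS for Spi1 (by 1.38) and Cebpa (by 0.66), and DAP12KO above LPS for Irf8 (by 1.09). These groups differ in label year as well, since years 1 and 2 held LPS and PBS arrays alone. Within year 4 the LPS array lay above the mean of the 4 UT arrays for 9 of 26 probe sets, against 43.5% of all, with a median difference of −0.19 against −0.06 over all. The PBS array of that year lay above the same mean for 17 of 26, against 52.5% of all, with a median of 0.16 against 0.03.

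Label year itself was associated with the levels of 4 of the 26 probe sets at an adjusted p under 0.05 (F-test in limma), against 9.04% of all. They were Runx1 1452530_a_at (adjusted p = 0.002), Irf5 1460231_at (0.013), Maf 1435828_at (0.037) and Sall1 1450489_at (0.046), none of them a lead probe set. Among UT arrays alone, those of year 3 were above those of year 4 for 20 of 26, by a median of 0.31 against 0.12 over all probe sets.

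The genes whose probe set was most like each lead probe set over the 10 arrays of year 4 were chosen from all 11630 tested genes. Pearson r is a description of arrays that share a label year. The highest r of so many genes over 10 arrays is high by the choice itself, so no link between genes is drawn from it. For Spi1 they were Rpa1 (r = 0.967) and Pes1 (0.930). Irf8 was most like Hcls1 (0.926), an adaptor of hematopoietic cells, and Rab3il1 (0.890), and over all 18 arrays these stayed at 0.886 and 0.924. Sall1 was most like Vav1 (0.960), a signalling protein of blood cells, and Trim3 (0.959). Runx1 was most like Rnf135 (0.923) and Tm7sf2 (0.909), Mef2c like Zfp267 (0.938) and Eif4g2 (0.927), and Maf like Gpbp1l1 (0.922) and Gcnt1 (0.914). Cebpa was most like Creld2 (0.944) and Gngt2 (0.914), Cebpb like Nars2 (0.899) and Mri1 (0.892), and Irf5 like Nav3 (0.893) and Cd302 (0.852). Over all 18 arrays Zfp267, Nars2 and Cd302 had r of −0.15, −0.08 and −0.14 with their factor. Apart from these and the genes most like Irf8, r over all 18 arrays ran from 0.22 for Pes1 to 0.89 for Gngt2.

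Genes known to depend on these factors in macrophages or microglia, such as Csf1r and Itgam under PU.1, were read from their lead probe sets. For LPS minus PBS 0 of 22 passed, 11 had an unadjusted p under 0.05 and all 22 were above 0, with a median of 0.63 against −0.12 over the lead probe sets of all genes. In the fit with 1 probe set per gene, 1447 of 11630 had an unadjusted p under 0.05 (limma). Of the genes written in this list 12 are also microglia markers, the group that was low in the PBS arrays of year 2. Within years 1, 2 and 4 there were 13, 22 and 15 of 22 above 0, with medians of 0.08, 0.99 and 0.11. Csf3r, the receptor of granulocyte colony-stimulating factor, was at 2.25 ± 0.39 (SE, limma adjusted p = 0.0526) and at 2.88, 2.70 and 0.70 within years 1, 2 and 4. Itgam, the integrin chain CD11b, was at 2.25 ± 0.43 (SE, limma adjusted p = 0.0744) and at 2.20, 3.03 and 0.76 in those years. Unlike the lead probe sets of Spi1 and Runx1, both were thus above 0 in each of the 3 years. For DAP12KO minus UT 0 of 22 passed and 14 were above 0, and the lowest p belonged to Tnf (2.69 ± 0.89, adjusted p = 0.779) and P2rx4 (1.54 ± 0.64, adjusted p = 0.873). P2rx4 is a gene that IRF5 activates in microglia.

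Family relatives of the 9 factors were tested for 23 of the 35 written. For LPS minus PBS 0 passed, 0 had an unadjusted p under 0.05 and 15 were above 0, and the lowest p belonged to Sall2 (−1.34 ± 0.70) and the PU.1 relative Spic (−1.51 ± 0.91). Within years 1, 2 and 4 Sall2 was at −3.12, −1.22 and 0.18, and Spic at −6.99, 0.04 and 0.87. For DAP12KO minus UT 0 passed and 11 were above 0, with Ets2 at 2.13 ± 0.72 and Irf7 at 1.55 ± 0.78 (SE, limma adjusted p = 0.779 and 0.909). Of 45 other macrophage transcription factors 36 were tested, and for LPS minus PBS 0 passed and 22 were above 0. Klf2, a factor linked to the quiescent state of macrophages, was at 2.63 ± 0.55 (SE, limma adjusted p = 0.0899), and at 4.85, 2.02 and 1.65 within years 1, 2 and 4. Bhlhe41, a factor of tissue macrophages, was at 2.40 ± 0.58 (SE, limma adjusted p = 0.134), and at 4.80, 2.21 and 0.37 in those years. For DAP12KO minus UT 0 of 36 passed, with Ikzf2 at −2.03 ± 0.85 and Tal1 at 1.73 ± 0.80 (SE, limma adjusted p = 0.873 and 0.898).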

How the data were processed

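The authors deposited a table of log2 values with 45101 probe sets and 18 arrays, and RMA is named in the submitters' processing notes, with no version and no statement on whether all arrays were processed together. Groups were taken from the labels and label year was treated as a batch. The 34958 probe sets annotated to exactly 1 gene were used, and 22512 were tested whose mean lay above log2 2.49, the 40th percentile of the whole table. The fit used limma 3.58.1 (R 4.3.3) on all 18 arrays, with group and label year as additive factors, 11 residual degrees of freedom, a variance prior that follows intensity, two-sided tests and Benjamini-Hochberg adjustment within a contrast, at a threshold of 0.05. The DAP12KO arrays were all of year 4, so that the UT arrays of year 4 set that difference. Every probe set of the 9 genes is reported, with the lead in full. Of the other lists, genes past the threshold were to be named, and otherwise the 2 with the lowest p. Likeness was ranked by Pearson r over the arrays of year 4. The factors and lists were chosen with earlier results of these data known. The labels do not say that arrays of 1 group came from separate litters beyond pooling per dam, and p-values measure the spread between these arrays. The number of arrays limits the precision. Raw intensities were not used here. Alternatives were other filters, priors, weights, blocks and arrays left out. Promoter sequence was taken from RefSeq (GRCm38.p6), and figures were drawn with matplotlib 3.10.9.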

Additional observations from a re-analysis of the deposited data

Results flagged for a closer look

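An array far from the others of its group was found for 12 of 106 sets of values, each set being a probe set in a group. Chance alone gives about 1 in 20 for independent sets, but these share arrays and genes, so the rates cannot be compared. Year 1 held 2 of them, both in LPS replicate 3: Runx1 1440878_at at 9.04, against 7.09 to 7.25 in the other LPS arrays, and Maf 1437473_at at 12.43, against 13.47 to 13.52. UT replicate 2 of year 4 was low for 3 probe sets, Runx1 1427650_a_at at 8.19 (9.16 to 9.65 in the other UT arrays), Mef2c 1421028_a_at at 10.39 (11.48 to 11.94) and Maf 1437473_at at 12.74 (13.85 to 14.21). The Gapdh 3′ minus 5′ signal of that array was 2.23, against 0.99 to 1.20 in the other UT arrays of year 4, and its part in these values was not tested.

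Sall1 1437983_at was high in LPS replicate 1 of year 2 at 12.86, against 12.10 to 12.17, and low in DAP12KO replicate 4 at 11.27, against 12.37 to 12.54. Mef2c 1421028_a_at was high in the LPS array of year 4 at 11.75, against 10.64 to 10.77. Maf 1456060_at was low in UT replicate 4 of year 3 at 13.29, against 13.89 to 14.24, and Maf 1444073_at in UT replicate 6 of year 4 at 6.79, against 9.36 to 9.84. Cebpb 1427844_a_at, which was not tested, stood at 2.19 in PBS replicate 1 of year 2 and at 3.54 in DAP12KO replicate 5, against 2.20 in the other arrays of both groups.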

How the results depend on the processing

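Under each alternative but 1, in both comparisons and in the test of their difference, 0 of the tested probe sets of the 9 factors passed. With array weights, which gave the arrays of year 2 between 1.57 and 2.88 and those of year 1 0.275 each, 7 of 26 passed for LPS minus PBS, all higher in LPS: 1 of Irf8, 2 of Runx1, 3 of Maf and 1 of Irf5. Over all probe sets the LPS minus PBS count was 6 with equal weights and 1968 with array weights. It was 1 with a replicate block or with no label year term, 0 with a filter at the 60th percentile or with LPS and PBS arrays alone, 11 with 1 probe set per gene, 21 without the PBS arrays of year 2, 203 with the arrays of year 4 alone, and between 1 and 243 with 1 array left out. The lead probe sets of the 8 factors other than Irf5 turned below 0 for LPS minus PBS without the PBS arrays of year 2. There years 1 and 4 alone set the difference. None passed the threshold, and the cause was not tested beyond the values given for the PBS arrays of year 2. Label year was associated with 4 of 26 probe sets, with 2 under a replicate block, 2 under a prior without trend, 2 with array weights, 0 of 9 with 1 probe set per gene, 1 without the PBS arrays of year 2, 0 without any arrays of year 2, and 2 to 6 with 1 array left out. The replicate block (same number within a label year) left 0 of 26 probe sets past the threshold for LPS minus PBS and for DAP12KO minus UT. The labels do not say that numbers pair arrays. Same-numbered LPS and PBS arrays of year 2 had a Pearson r of 0.52 over probe sets between their deviations from the group mean. With 2 arrays per group this is 1 value for both pairs, with the opposite sign for the crossed pairs, so it cannot decide pairing. For same-numbered DAP12KO and UT arrays of year 4 the values were −0.01 and 0.00. With the groups of a contrast alone label year was associated with 0 of 26 in LPS and PBS arrays (8 at an unadjusted p under 0.05, limma) and 0 of 26 in DAP12KO and UT arrays (1 unadjusted). The label year test cannot be made with no year term or with year 4 alone. With 1 LPS and 1 PBS array in year 4, the spread there was taken from the other groups.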
